A study of Mus musculus with 2 samples.

Results

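The DEAD and DEAH box RNA helicases were followed as 51 genes of the 16428 that had a read in 2 RNA-seq libraries. They were taken as every gene whose symbol starts with Ddx or Dhx followed by a digit, with Ddx3x and Ddx3y left out, and with 10 or more reads in bone marrow or spleen. The symbol rule alone gave 52 genes, and the one below the read limit was Ddx4, the germ cell helicase Vasa, with 8 reads in bone marrow against 5 in spleen. Of the 51, 35 carry a Ddx and 16 a Dhx symbol, and all 51 had reads in both libraries. The libraries hold macrophages sorted from the bone marrow and from the spleen of C57BL/6J mice, aged 6 to 8 weeks per the labels, that had received 500000 GFP-labelled leukaemia cells each without irradiation. The leukaemia is the MLL-AF9 model of acute myeloid leukaemia, in which a fusion oncogene drives the disease. Both tissues were collected 15 days after transplantation, in animals that otherwise survived 25 to 30 days. Each tissue has 1 library, and neither the number of mice behind it nor the sort gates are named in the labels. No library of macrophages from mice without leukaemia was used.

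These helicases use ATP to unwind or remodel RNA and to strip proteins from it. Their names come from letters of a conserved ATPase motif, Asp-Glu-Ala-Asp in DEAD box proteins and Asp-Glu-Ala-His in DEAH box proteins. Separate members act at nearly every step in the life of an RNA: transcription, splicing, export from the nucleus, ribosome assembly, translation and decay. A small group around RIG-I recognises viral RNA in the cytoplasm of myeloid and other cells and starts the interferon response.

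Since no tissue has a second library, every difference below is between these libraries, none has a replicate check and no p-value was computed. Depth, as the total of uniquely placed reads times its TMM scaling factor (0.977 for bone marrow and 1.02 for spleen), was 9405947 reads in the bone marrow library and 8457857 reads in the spleen library. Levels are given as CPM, counts scaled to these depths, or as the deposited RPKM where genes are compared with each other, because RPKM also divides by gene length. Ratios are CPM in bone marrow over CPM in spleen with exact 95% intervals, which cover counting error only. A gene was called higher in 1 library when log2(CPM + 1) differed by at least 1, which is about 2-fold and somewhat more for low genes, among the 12970 genes that reached 1 CPM and 10 reads somewhere, called measured here. The sorted cells expressed macrophage genes in both tissues: the 13 markers listed summed to 588 CPM in bone marrow against 1200 CPM in spleen, none was at 0, and 6 were higher in spleen. Both libraries also held markers of other cells. The 13 neutrophil and precursor markers were all higher in bone marrow and summed to 48652 CPM there, against 2198 CPM in spleen. The 8 B cell, 8 T cell and 7 dendritic cell markers summed to 394, 176 and 165 CPM in bone marrow, against 4511, 1432 and 994 CPM in spleen, with 8, 8 and 6 of them higher in spleen and no marker at 0 in either library.

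Most helicases were expressed at similar levels in both tissues. Of 51, 1 was called higher in bone marrow (Ddx1), 3 were called higher in spleen (Dhx57, Ddx58 and Ddx25) and 47 lay within 2-fold. Over all measured genes the corresponding shares were 14.1 percent higher in bone marrow and 14.6 percent higher in spleen, or 28.8 percent in either direction, against 7.84 percent of helicases. Helicases are read more deeply than a typical gene, with a median RPKM of 21.3 in bone marrow and of 22.1 in spleen, where the medians over measured genes were 10.7 in bone marrow and 11.3 in spleen. The same count was therefore made among genes with at least 100 reads in a library. There, 3 of 49 helicases (6.12 percent) and 26.9 percent of 9884 genes were past 2-fold. The median log2 ratio was -0.04 for helicases and 0.03 for all measured genes, and the median size of the log2 ratio, whatever its sign, was 0.33 for helicases and 0.58 for all. For 78.4 percent of helicases and 50.2 percent of measured genes the log2 ratio stayed within a 1.5-fold difference.

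**Figure D1:**
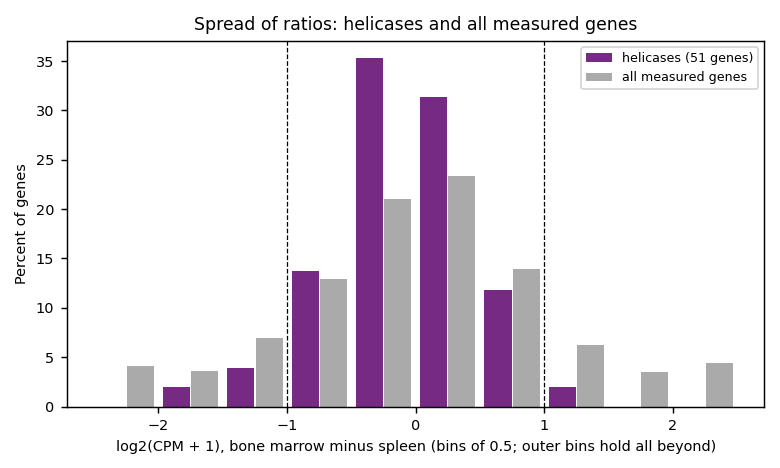
Percent of genes (vertical axis) in bins of 0.5 of the difference in log2(CPM + 1), bone marrow minus spleen (horizontal axis), for the 51 helicases in purple and all measured genes in grey; the outer bins hold all values beyond them and dashed lines mark 2-fold. Helicases gather in the 4 central bins, with 47 of 51 inside the dashed lines.

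The counting intervals were narrow at this depth, so small ratios could be told from 1 as counts. The interval lay above 1 for 19 helicases, below 1 for 16 and held 1 for 16. Such an interval speaks of the reads of these libraries and holds no variation between animals. The same counts were not made over all measured genes, so they say nothing particular about helicases. Bulk libraries cannot tell a smaller share of cells of one type from less RNA per cell, and this applies to each ratio below.

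Levels spanned a wide range and kept nearly the same order in both tissues. Ddx5 had the highest RPKM of the family, 447 in bone marrow against 729 in spleen, followed in both libraries by Ddx39b and Ddx17. Bone marrow then had Dhx15 and Dhx9 at 105 and 91.4 RPKM, and spleen had Ddx6 and Dhx15 at 102 and 87.3 RPKM. At the other end, Ddx25 and Ddx43 had 0.248 and 0.423 RPKM in bone marrow against 1.30 and 1.10 in spleen, which is 4 and 9 reads in bone marrow against 18 and 20 in spleen. Spearman's rho between the libraries over the 51 RPKM values was 0.94, and 0.87 over all measured genes, where the points share gene lengths and libraries and are not independent replicates. The deposited covered share of gene length had a median of 94.8 percent in bone marrow against 95.7 percent in spleen, and 36 helicases were covered over at least 90 percent in both.

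**Figure D2:**
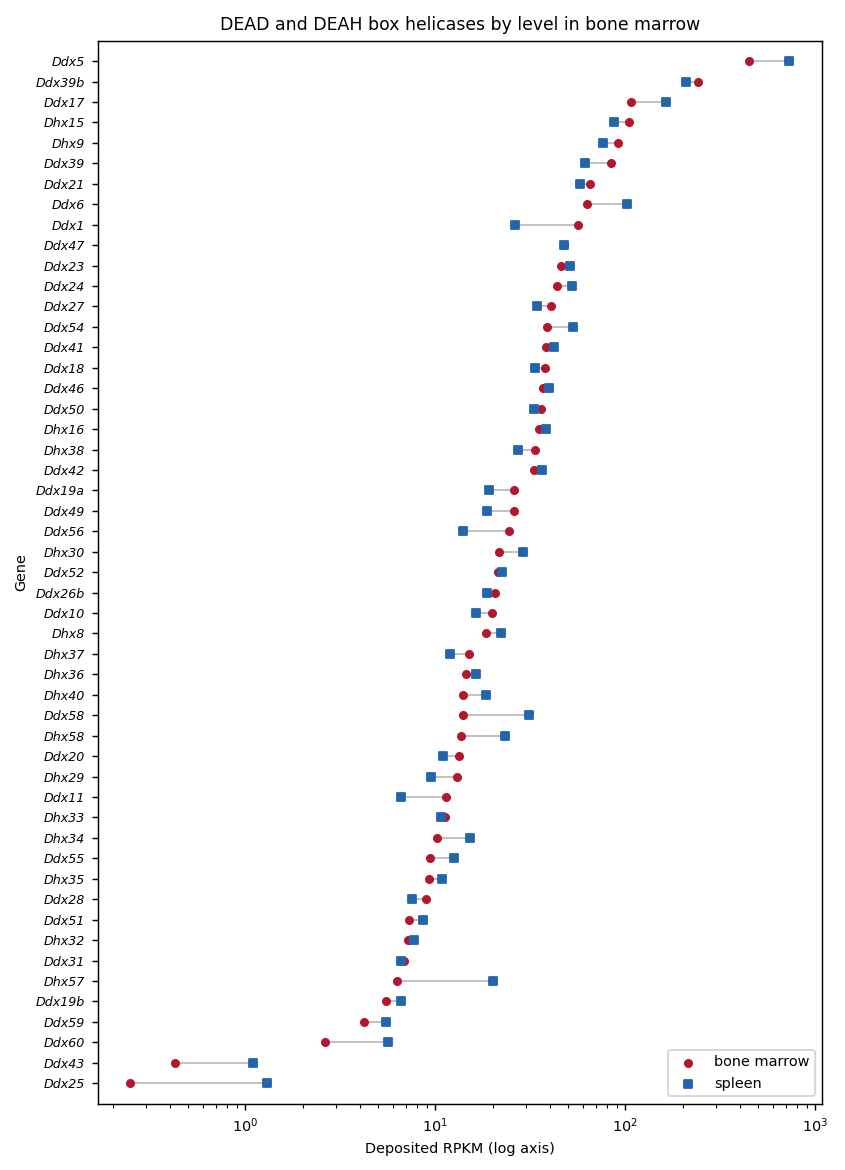
Deposited RPKM on a log axis for each of the 51 helicases, with bone marrow as red circles and spleen as blue squares, 1 library each, ordered by the bone marrow level. Ddx5 stands highest at 447 in bone marrow against 729 in spleen, and Ddx43 and Ddx25 lie at the bottom.

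All 3 helicases listed as RIG-I-like or antiviral had ratios below 1, and 1 passed the limit, Ddx58. Ddx58 encodes RIG-I, which recognises viral RNA with a triphosphate end and signals through the mitochondrial adaptor Mavs. It had 663 reads in bone marrow against 1276 in spleen, or 70.5 CPM in bone marrow against 151 CPM in spleen. Its ratio was 0.467 (0.425 to 0.514), and it was called higher in spleen. Dhx58 encodes LGP2, a relative of RIG-I without the signalling domains that tunes the response. Its 318 reads in bone marrow against 466 in spleen gave 33.8 CPM in bone marrow against 55.1 CPM in spleen, a ratio of 0.614 (0.530 to 0.709) within the 2-fold limit. Ddx60, an interferon-induced antiviral helicase, had 151 reads in bone marrow against 280 in spleen. Its ratio of 0.485 (0.395 to 0.593) is past 2-fold in CPM, but on the log2(CPM + 1) scale it stopped just short of the limit, which it crossed with library totals alone (-1.06). The next helicase inside the limit was Ddx56 (0.86), and those just past it were Ddx58 (-1.09) and Ddx25 (-1.13).

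Promoters of this group are shown because its members leaned the same way and because interferon-stimulated genes often carry paired GAAA blocks near their start. The letters GAAA, any 2 bases, then GAAA were searched on both strands in RefSeq windows of 250 bases before to 50 bases after each gene's start in build GRCm38.p6, which held 45 of the 51 helicases and no entry for Dhx58. The motif was in a window of 3.99 percent of the 27025 genes in the table, and of 3 helicases, Ddx58, Ddx60 and Ddx49. Ddx58 lies on the minus strand (chr4:40239776-40240075) and held 1 match, to the reverse complement, at bases 253 to 262 of the window. Ddx60 lies on the plus strand (chr8:61927837-61928136) and held 2 identical matches, at bases 198 to 207 and 232 to 241. Capitals mark the matches, and each window is written 5′ to 3′ along its gene:
Ddx58: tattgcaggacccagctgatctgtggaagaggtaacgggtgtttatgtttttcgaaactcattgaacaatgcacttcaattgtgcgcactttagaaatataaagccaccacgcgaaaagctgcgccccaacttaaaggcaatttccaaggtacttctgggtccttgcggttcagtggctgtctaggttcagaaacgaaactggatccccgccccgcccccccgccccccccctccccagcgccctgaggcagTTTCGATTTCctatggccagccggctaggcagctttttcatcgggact
Ddx60: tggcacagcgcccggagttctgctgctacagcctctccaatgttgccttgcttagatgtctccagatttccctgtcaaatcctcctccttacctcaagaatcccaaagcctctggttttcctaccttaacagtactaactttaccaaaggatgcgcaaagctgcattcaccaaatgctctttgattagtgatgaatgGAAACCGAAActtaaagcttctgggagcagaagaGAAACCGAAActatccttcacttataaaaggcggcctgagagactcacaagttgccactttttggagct
Ddx49, a helicase of ribosome assembly with 55.9 CPM in bone marrow against 38.4 CPM in spleen, carried 1 match, which lies in both of its overlapping windows, at -227 from one start and -246 from the other. A match is a description of these letters only.

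The rest of the RIG-I pathway was read from a list of 14 genes. Of these, 1 was called higher in bone marrow, 0 were called higher in spleen, 13 of 14 had log2 ratios below 0, and the median was -0.54 beside 0.03 over all measured genes. Ifih1 encodes MDA5, the RIG-I-like receptor whose symbol falls outside the Ddx and Dhx names. It had 446 reads in bone marrow against 485 in spleen, a ratio of 0.827 (0.725 to 0.942). Mavs itself had 297 reads in bone marrow against 395 in spleen, a ratio of 0.676 (0.580 to 0.788). The genes with the lowest ratios were Irf7, a transcription factor of the interferon response, at 68.4 CPM in bone marrow against 138 CPM in spleen, and Tmem173, which encodes STING, at 64.5 CPM in bone marrow against 129 CPM in spleen. With library totals alone both passed the limit, for a count of 2. Next to the highest was Ikbke, a kinase of the pathway, with a ratio of 0.896 (0.813 to 0.987). The exception was Nlrx1, a mitochondrial member of the NOD-like receptor family, at 56.9 CPM in bone marrow against 16.9 CPM in spleen, a ratio of 3.36 (2.79 to 4.07).

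Of 21 interferon-stimulated genes, 11 were called higher in spleen and 0 in bone marrow, 10 lay within 2-fold and 3 had log2 ratios above 0. Their log2 ratios had a median of -1.13, and none was at 0; their summed level was 885 CPM in bone marrow against 1776 CPM in spleen. Ifit3 and Zbp1 had the lowest ratios, 0.244 (0.180 to 0.326) and 0.265 (0.226 to 0.310), and Cmpk2 and Ifi44 the highest, 1.40 (1.22 to 1.61) and 1.29 (0.939 to 1.78). The 8 B cell and 8 T cell markers, 6 of 7 dendritic cell markers and 6 of 13 macrophage markers, with the sums given above, were called higher in spleen. Their part in the ratios of Ddx58, Dhx58 and Ddx60 was not tested.

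Ddx1 was the one helicase called higher in bone marrow. In human cells it belongs to the complex that joins tRNA exons after intron removal, and it also binds other RNA-protein particles. It had 1347 reads in bone marrow against 538 in spleen, or 143 CPM in bone marrow against 63.6 CPM in spleen. Its ratio was 2.25 (2.04 to 2.49), and the call held under each scaling and pseudocount tried and in RPKM. By RPKM it had rank 9 of 51 in bone marrow, at 56.2, and rank 23 in spleen, at 26.2.

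The other RNP and transcription co-factors divided. Ddx5 and Ddx17 encode p68 and p72, closely related proteins that serve as transcription co-regulators and in splicing and microRNA processing. Ddx5 had 15145 reads in bone marrow against 21222 in spleen, a ratio of 0.642 (0.628 to 0.655). Ddx17 had 4902 reads in bone marrow against 6481 in spleen, a ratio of 0.680 (0.655 to 0.706). Both lay within 2-fold, and the RPKM of Ddx5 was 4.19 times that of Ddx17 in bone marrow and 4.44 times in spleen. On the other side of 1, Dhx9 (RNA helicase A) was at 433 CPM in bone marrow against 343 CPM in spleen, a ratio of 1.26 (1.20 to 1.32). Ddx20, the Gemin3 protein of the SMN complex that assembles spliceosomal particles, was at 36.9 CPM in bone marrow against 28.8 CPM in spleen, a ratio of 1.28 (1.08 to 1.51).

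Ddx5 held the largest share of the family's reads in both libraries, 22.4 percent of helicase reads in bone marrow against 30.3 percent in spleen. All 51 together summed to 7199 CPM in bone marrow against 8289 CPM in spleen, a ratio of 0.868. Without Ddx5 the sums were 5589 CPM in bone marrow against 5780 CPM in spleen (ratio 0.967), and without Ddx5, Ddx17 and Ddx6 they were 4679 CPM in bone marrow against 4409 CPM in spleen (ratio 1.06). These 3 genes are abundant members with ratios below 1, so leaving them out could only raise the ratio of the sums. Ddx39b, Dhx9 and Dhx15, abundant members with ratios above 1, were kept.

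**Figure D3:**
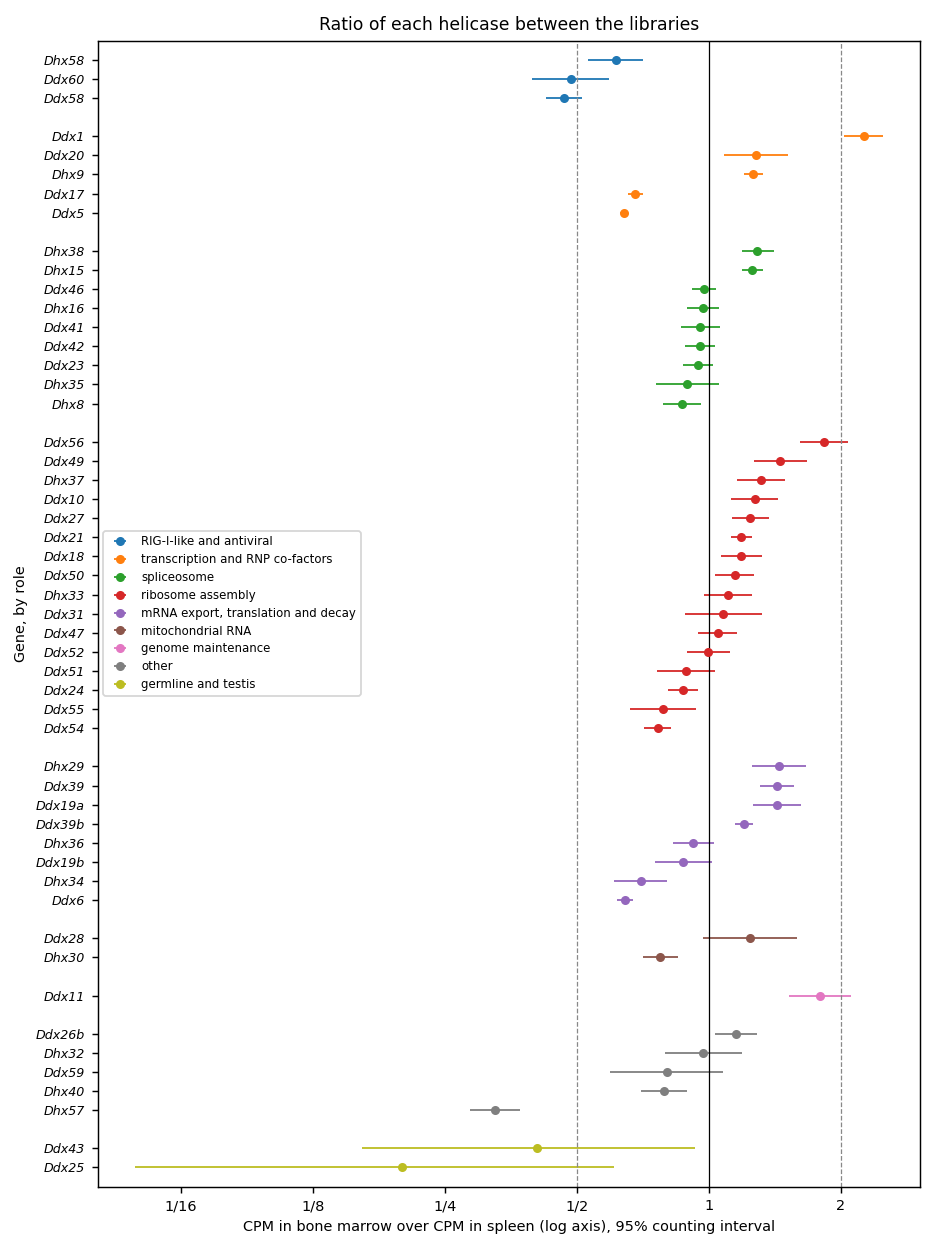
Ratio of CPM in bone marrow over CPM in spleen (log axis) for each helicase, grouped and coloured by role, with exact 95% counting intervals as bars; dashed lines mark 2-fold in CPM. Ddx1 lies right of the upper line at 2.25 and Dhx57 far left at 0.326, while the spliceosome helicases lie close to 1; Ddx60 and Ddx43 pass the lower line in CPM but not on the log2(CPM + 1) scale used for calls.

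Spliceosome helicases were close to even. These ATPases drive the rearrangements of the spliceosome, one after another. All 9 lay within 2-fold and also within a 1.5-fold difference, with a median log2 ratio of -0.06 and a range of -0.20 to 0.36. Dhx38, the mouse counterpart of yeast Prp16, which acts before the second splicing step, had the highest ratio, 1.29 (1.19 to 1.40), at 144 CPM in bone marrow against 112 CPM in spleen. Dhx15, counterpart of yeast Prp43, which takes the spent spliceosome apart, had the highest RPKM of the role, 105 in bone marrow against 87.3 in spleen, and a CPM ratio of 1.26 (1.19 to 1.33). The lowest was Dhx8, counterpart of yeast Prp22, which releases the spliced mRNA, at 81.5 CPM in bone marrow against 94.0 CPM in spleen. Its ratio was 0.868 (0.785 to 0.959). The other 6 had intervals that held 1: Ddx46, with 2007 reads in bone marrow against 1850 in spleen, Dhx16, Ddx41 and Ddx42, Ddx23, with 1244 in bone marrow against 1184 in spleen, and Dhx35, with 288 in bone marrow against 290 in spleen. Ddx41, whose inherited mutations predispose people to myeloid neoplasms, was at 86.8 CPM in bone marrow against 90.7 CPM in spleen. Among 24 other spliceosome proteins 1 was called higher in bone marrow, Snrpd1 with a ratio of 2.41 (2.12 to 2.75), and 0 in spleen, and their median log2 ratio was 0.25. Prpf19 followed at 1.81 (1.69 to 1.94), and Slu7 and Sf3b1 were lowest at 0.843 (0.757 to 0.939) and 0.684 (0.660 to 0.708).

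Ribosome assembly helicases all lay within 2-fold, most of them with ratios above 1. These act in the nucleolus on precursors of the small and large subunits. Of 16, none was called in either direction, 11 had log2 ratios above 0 and 5 below (with library totals alone Ddx47 lay below too), and the median was 0.17, or 0.10 with library totals alone. Over all measured genes, 6662 of 12970 had log2 ratios above 0, and the median was 0.03. Ddx56, a nucleolar helicase of the large subunit, had the highest ratio of this role, 1.83 (1.61 to 2.07), with 770 reads in bone marrow against 379 in spleen. Ddx49 followed at 1.46 (1.26 to 1.68), with 526 reads in bone marrow against 325 in spleen. Dhx37, a helicase of the small-subunit processome, had 611 reads in bone marrow against 419 in spleen, a ratio of 1.31 (1.16 to 1.49). All 3 lay within 2-fold. At the other end, Ddx54 had 1474 reads in bone marrow against 1734 in spleen, a ratio of 0.764 (0.713 to 0.820). Ddx55, with 254 reads in bone marrow against 291 in spleen, was at 0.785 (0.661 to 0.932). Ddx24, with 1286 reads in bone marrow against 1325 in spleen, was at 0.873 (0.808 to 0.943). These 3 also act on the large subunit. The other 10 (Ddx10, Ddx27, Ddx18, Ddx21, Ddx50, Dhx33, Ddx31, Ddx47, Ddx52 and Ddx51) had ratios between 0.886 and 1.27. Among these, the intervals of Dhx33, Ddx31, Ddx47, Ddx52 and Ddx51 held 1. Ddx21 and its close paralogue Ddx50 kept nearly the same proportion: the RPKM of Ddx21 was 1.82 times that of Ddx50 in bone marrow and 1.76 times in spleen.

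Other assembly factors were read from a list of nucleolar proteins. Of 38 nucleolar proteins that are not Ddx or Dhx helicases, 2 were called higher in bone marrow (Wdr12 and Ncl) and 0 in spleen, 37 had log2 ratios above 0, and the median was 0.49. Ncl lost its call with library totals alone and with the deposited RPKM, which left a count of 1 in each. The count was 3 with a pseudocount of 0.1. Wdr12, of the PeBoW complex of the large subunit, had the highest ratio, 2.44 (2.08 to 2.86). Ncl, which encodes nucleolin, was at 1395 CPM in bone marrow against 690 CPM in spleen, a ratio of 2.02 (1.96 to 2.09), while the lowest were Polr1c at 1.09 (0.934 to 1.26) and Utp3 at 0.948 (0.844 to 1.06). Proliferation genes were higher in the same library: all 18 listed, such as the replication licensing Mcm genes, were called higher in bone marrow. Their median log2 ratio was 1.92, they summed to 6477 CPM in bone marrow against 1835 CPM in spleen, and none was at 0. Ccnb1 had the highest ratio, 5.30 (4.61 to 6.10), and Myc the lowest, 2.14 (1.99 to 2.31). Of 5 stem and progenitor markers, 3 were called higher in bone marrow and 0 in spleen. These were Cd34, Meis1 and Hoxa9, with ratios of 41.8, 8.30 and 7.35, while Kit (1.87) and Flt3 (0.602) lay within 2-fold. The mice carried leukaemia cells, and these libraries cannot tell markers of such cells from markers of normal progenitors. All 6 eosinophil, basophil and mast cell markers were called higher in bone marrow, as were 4 of 5 megakaryocyte and platelet markers. Their part in the ratios of Ddx1, Ddx56 and the other assembly helicases was not tested, nor was that of proliferation or neutrophil precursor genes. Any part of leukaemia cells in those ratios was not tested either.

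Ddx11 was listed alone, under genome maintenance. It encodes a DNA helicase needed for cohesion of sister chromatids. It had 454 reads in bone marrow against 228 in spleen, a ratio of 1.79 (1.52 to 2.11), within the 2-fold limit. The part of proliferation in this ratio was not tested.

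**Figure D4:**
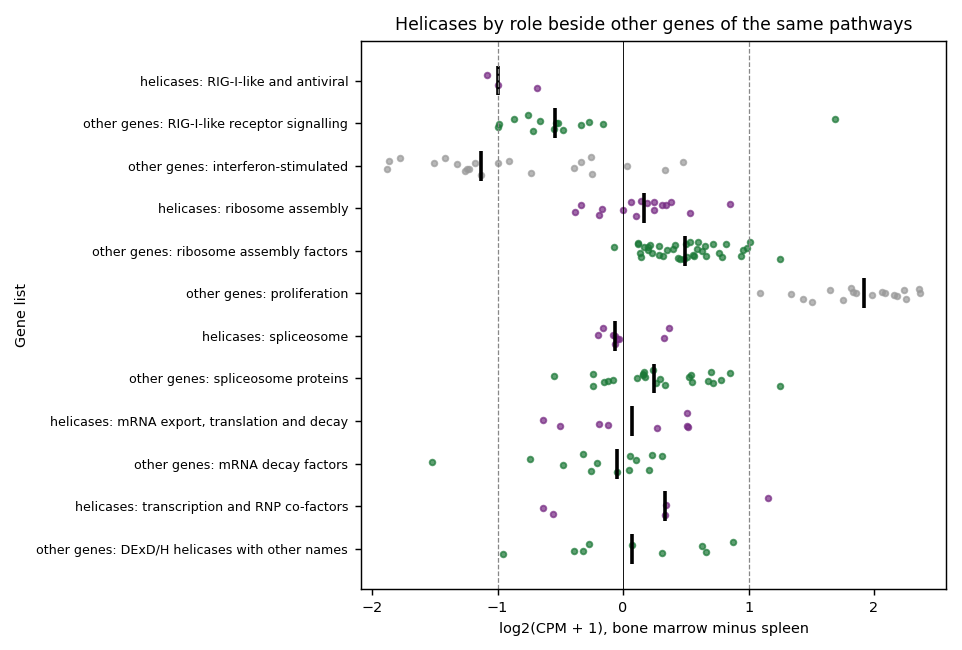
Difference in log2(CPM + 1), bone marrow minus spleen, for helicases by role (purple) and for other genes of the same pathways (green) or of interferon response and proliferation (grey); each point is 1 gene, black bars are medians and dashed lines mark 2-fold. All 3 RIG-I-like or antiviral helicases and 18 of 21 interferon-stimulated genes lie below 0. Of other ribosome assembly factors 37 of 38 lie above 0, as do all 18 proliferation genes.

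Helicases of mRNA export, translation and decay split evenly, 4 above 0 and 4 below, none called, with a median log2 ratio of 0.07. Ddx39b and Ddx39, the paralogues UAP56 and URH49 that load mRNA for export, had ratios of 1.20 (1.15 to 1.26) and 1.43 (1.31 to 1.56). Ddx39 had 1341 reads in bone marrow against 844 in spleen. Ddx39b followed Ddx5 in both libraries at 241 RPKM in bone marrow against 209 RPKM in spleen. Dhx29, which helps ribosomes scan structured mRNA, was at 54.8 CPM in bone marrow against 38.0 CPM in spleen, a ratio of 1.44 (1.25 to 1.66). On the other side, Ddx6, a translational repressor and activator of decapping in P-bodies, had 3660 reads in bone marrow against 5115 in spleen, a ratio of 0.643 (0.617 to 0.671). Dhx34, which acts in nonsense-mediated decay, had 373 reads in bone marrow against 480 in spleen, a ratio of 0.699 (0.609 to 0.802). Dhx36, which unwinds G-quadruplexes, was at 73.5 CPM in bone marrow against 79.8 CPM in spleen with an interval that held 1.

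Ddx19a and Ddx19b, near-identical helicases that release mRNA on the outer side of the nuclear pore, had ratios of 1.43 (1.26 to 1.62) and 0.874 (0.753 to 1.02). Ddx19a had 646 reads in bone marrow against 406 in spleen, and Ddx19b had 353 in bone marrow against 363 in spleen. Only uniquely placed reads were counted, and they covered 75.1 percent of Ddx19a in bone marrow against 74.3 percent in spleen, so the division of reads between these paralogues is uncertain. Of 13 mRNA decay factors that are not in the family, 0 were called higher in bone marrow and 1 was called higher in spleen, Smg1, the kinase of nonsense-mediated decay, at 220 CPM in bone marrow against 634 CPM in spleen. Xrn1, the cytoplasmic exonuclease, was next lowest at 0.591 (0.511 to 0.682), and Edc3 and Cnot1 were highest at 1.24 (1.10 to 1.41) and 1.17 (1.12 to 1.23). The median log2 ratio of those factors was -0.04.

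The mitochondrial helicases lay on opposite sides of 1. Dhx30, found in mitochondrial RNA granules, was at 92.9 CPM in bone marrow against 120 CPM in spleen, a ratio of 0.775 (0.707 to 0.849). Ddx28, needed for assembly of the mitochondrial ribosome, had 160 reads in bone marrow against 116 in spleen, a ratio of 1.24 (0.971 to 1.59) that could not be told from 1 at this depth.

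Dhx57 had the largest difference of the 49 helicases with at least 100 reads in a library. It had 306 reads in bone marrow against 845 in spleen, or 32.5 CPM in bone marrow against 99.9 CPM in spleen. Its ratio was 0.326 (0.285 to 0.372), it was called higher in spleen, and this held under each scaling and pseudocount tried and in RPKM. Reads covered 85.6 percent of its length in bone marrow against 92.0 percent in spleen. In GENCODE M21, 6.45 percent of its exon bases are shared with genes on the opposite strand, Morn2 among them, and the labels do not say whether counting used strand. The 16 lymphocyte markers and 6 of 7 dendritic cell markers were called higher in the same library, and their part was not tested.

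Ddx26b, Dhx40, Dhx32 and Ddx59, which like Dhx57 were placed in none of the roles above, all lay within 2-fold. Ddx26b, which RefSeq now names Ints6l, is a member by its symbol alone, and its protein was not checked for the ATPase motif. Ddx26b was at 79.8 CPM in bone marrow against 69.3 CPM in spleen. Dhx40 was at 53.2 CPM in bone marrow against 67.3 CPM in spleen, a ratio of 0.790 (0.699 to 0.893). Dhx32 and Ddx59, with 204 and 90 reads in bone marrow against 189 and 101 in spleen, had intervals that held 1.

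Germ cell helicases were barely detected. Ddx25, a testis helicase regulated by gonadotropin, had 4 reads in bone marrow against 18 in spleen. Its ratio of 0.200 (0.0492 to 0.607) passed the limit, but with a pseudocount of 5 its log2 difference was -0.39 and the call was lost. Ddx43, a gene of testis and tumours, had 9 reads in bone marrow against 20 in spleen, a ratio of 0.405 (0.162 to 0.930) and a log2 difference of -0.78. Reads covered 9.31 and 19.2 percent of the lengths of Ddx25 and Ddx43 in bone marrow against 30.0 and 34.4 percent in spleen. A count of 0 would allow up to 3 reads, which is 0.319 CPM in bone marrow against 0.355 CPM in spleen, and the bone marrow level of Ddx25, 0.425 CPM, was close to it.

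DExD/H helicases with other names serve as a neighbouring set. Of 10 listed, 9 were measured, 0 were called in either direction, and the median log2 ratio was 0.07. The translation factor paralogues Eif4a1 and Eif4a2, which unwind mRNA for ribosome loading, lay on opposite sides. Eif4a1 had 9079 reads in bone marrow against 4456 in spleen, a ratio of 1.83 (1.77 to 1.90). Eif4a2 had 2959 reads in bone marrow against 5170 in spleen, a ratio of 0.515 (0.492 to 0.539). With library totals alone or with the deposited RPKM, Eif4a2 passed the limit. Eif4a3, the anchor of the exon junction complex, had a ratio of 1.55 (1.42 to 1.69) and Supv3l1, a mitochondrial helicase, one of 1.61 (1.34 to 1.94). Snrnp200, the Brr2 helicase of the spliceosome, was near even at 331 CPM in bone marrow against 315 CPM in spleen, as the spliceosome members of the family were. Skiv2l and Skiv2l2, which feed RNA to the exosome, had ratios of 0.802 (0.744 to 0.864) and 1.24 (1.13 to 1.37), and Ythdc2 one of 0.758 (0.642 to 0.894). Tdrd9, a germ cell helicase, had 3 reads in bone marrow against 1 in spleen.

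Some values carry a limit from overlapping genes. In GENCODE M21, 5 helicases share more than 10 percent of their exon bases with a gene on the opposite strand: Ddx49 (29.9 percent, with Homer3), Ddx41 (17.4 percent), Ddx39 (17.4 percent, with Adgre5), Ddx43 (15.9 percent) and Ddx54 (15.4 percent). Reads of such partners cannot be told apart if counting ignored strand.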

How the data were processed

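Per the labels' protocols, total RNA of sorted macrophages was made into standard Illumina libraries. The authors' deposited tables give, per the file headers, a count of uniquely placed reads for each Entrez gene, its RPKM and the percent of its length covered. The aligner, counter, build and annotation used are not stated in the labels or headers. Counts summed to the header totals, the deposited RPKM was recomputed to within 6.74e-06 percent, and a gene missing from a table was given 0 reads. Tables were joined on the Entrez identifier. Counts were scaled with TMM (edgeR 4.0.16, R 4.3.3), and log2(CPM + 1) was compared as bone marrow minus spleen, which understates the change of low genes. Intervals of ratios are exact conditional binomial (Clopper-Pearson) 95% intervals. Reads from PCR that carry no molecular identifier are not independent molecules, so intervals and floors cover counting error only. Each result was recomputed with size factors of DESeq2 1.42.0, with library totals alone, with TMM without marker genes of other cell types, with other pseudocounts, floors and fold rules, and with the deposited RPKM; for the interferon, proliferation and cell type lists these were chosen after seeing the data. The procedure was tested on simulated counts that held counting error only, with as many genes raised as lowered. That setting is simpler than these libraries and says nothing of variation between animals. Promoters are from RefSeq tables of GRCm38.p6; exon overlap is from GENCODE M21, used for neighbour relations only, since the files name no build. Members, roles and gene lists were chosen with earlier results of these data known. Named with values were the members past 2-fold or nearest to it, the 5 most abundant, small roles whole, and the 3 highest and 3 lowest ratios of the larger roles; the cell type lists appear as counts and sums. Erythroid, megakaryocyte, progenitor, and eosinophil, basophil and mast cell markers summed to 33.0, 265, 656 and 2323 CPM in bone marrow, against 45.9, 17.1, 268 and 42.0 CPM in spleen.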

Additional observations from a re-analysis of the deposited data

How the results depend on the processing

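The count of helicases called higher in bone marrow was 1 and in spleen 3, and the first stayed at 1 under every alternative except the 4-fold rule, under which 0 helicases were called in bone marrow and 0 in spleen. The spleen count was 5 with a pseudocount of 0.1 (Ddx43 and Ddx60 added), 4 with library totals alone or TMM without marker genes (Ddx60 added) and 2 with a pseudocount of 5, a floor of 10 CPM or the deposited RPKM (Ddx25 lost). Ddx1, Ddx58 and Dhx57 kept their calls under all of these but the 4-fold rule. The median log2 ratio of helicases, -0.04, was -0.10 with library totals alone and -0.10 with the deposited RPKM, and between -0.04 and -0.03 otherwise. The sign of the log2 ratio turned for 1 helicase at most under any alternative, Ddx52 with DESeq2 size factors and Ddx47 with library totals alone or RPKM. No list median by role or pathway changed sign. The count of interferon-stimulated genes higher in spleen stayed between 9 and 12, and that of proliferation genes higher in bone marrow at 18, under the alternatives other than the 4-fold rule, which gave 0 and 8. The median of Ddx25 and Ddx43, -0.96, became -1.65 at a pseudocount of 0.1 and -0.35 at one of 5, and neither reached the floor of 10 CPM. Removing the CPM floor changed nothing, since 10 reads already exceed 1 CPM. No paired analysis was possible because each tissue has 1 library, which also leaves no replicate to leave out. Depth limits Ddx25 and Ddx43, with 20 reads or fewer in each library.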
